A study of Mus musculus with 8 samples.

Results

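The genes described here are 39 markers of stellate cells and components, modifiers and regulators of the extracellular matrix, chosen by name: collagens, lysyl oxidases, matrix glycoproteins and proteoglycans, metalloproteinases and their inhibitors, ligands and receptors of TGF-beta and PDGF signalling, and cytoskeletal and stellate markers. Of the 39 genes, 37 had a probe set annotated with a single symbol, out of 22180 such genes on the array. Ctgf was among them under its present symbol Ccn2. Loxl2 was left without a value, because both of its probe sets name a second gene as well, and no probe set was assigned to Fbn1.

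Scarring of the liver is driven by hepatic stellate cells, the retinoid-storing pericytes of the sinusoid. On activation they become contractile myofibroblasts that secrete fibrillar collagen, and lysyl oxidases, which are copper-dependent amine oxidases, then crosslink collagen and elastin outside the cell.

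Livers came from 8 C57BL/6N mice aged 27 days, with 1 array of total RNA per mouse. The 4 knockout mice had the genotype Albumin-Cretg/wt:Sco1fl/fl, in which Cre under the albumin promoter deletes Sco1, a mitochondrial copper chaperone of cytochrome c oxidase assembly, in hepatocytes. The albumin promoter is not active in stellate cells, so these cells are not the targeted ones. The 4 control mice, called wild-type here, all carried floxed Sco1, and their titles give each as Sco1fl/fl. Their genotype labels differ from the titles in part: mice 1 and 3 were Albumin-Cretg/wt:Sco1fl/wt and mice 2 and 4 were Albumin-Crewt/wt:Sco1fl/fl. Values are log2 expression values made by the authors, on which the array medians lay between 5.79 and 5.89 and the highest value was 13.88. The hepatocyte marker Cps1, of the urea cycle, stood near that top, with means of 13.60 (knockout) and 13.52 (wild-type). Of the 11 measured hepatocyte markers 4 differed by more than 0 and 7 by less, from -0.32 to 0.079. None passed the threshold used below, where 1.15% of all genes did. At a limma unadjusted p under 0.05, 1 was lower and 0 higher, against 16.7% of all genes. Groups did not overlap for 2 of the markers, both lower, against 10.7% of all genes. Sco1 was lower in every knockout array than in every wild-type array (7.59 ± 0.10 against 8.00 ± 0.15, SD, n = 4 each), with a limma adjusted p of 0.0633. In knockout mouse 4 the 3 measured Y-linked genes averaged 7.36, against at least 8.6 in each of the other 7 mice. Both mice numbered 1 stood apart in the clock output gene Dbp, at 9.66 and 9.86 against 6.87 to 7.33 in the other 6. In whole liver RNA, fewer cells of a type and less RNA per cell cannot be told apart.

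The comparison asks whether the matrix and stellate genes show a fibrotic response to the loss of Sco1 in hepatocytes at this age. None of the 37 measured genes rose or fell (limma with Benjamini-Hochberg adjustment over all genes, threshold 0.05), where 1.15% of all genes passed, 0.433% as higher and 0.717% as lower. The lowest adjusted p among the 37 was 0.168. At an unadjusted p under 0.05, 2 of the 37 were higher and 0 lower, that is 5.41% against 16.7% of all genes (8.61% higher and 8.06% lower). The 4 knockout and 4 wild-type values did not overlap for 1 gene, Mmp14, which was higher in the knockout, or 2.7% of the 37 against 10.7% of all genes (5.26% higher and 5.49% lower). The median difference over the 37 was -0.0024 log2 units and that over all genes 0.027, with 17 differences above 0 and 20 below. Single differences ran from -0.25 for Tagln to 0.31 for Mmp14.

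The arrays were precise enough to bound these differences on the scale of the deposited values. RMA pulls large differences toward 0, so the bounds are on these values and not on transcript levels. Lox, Mmp13 and Timp1 were the 3 of the 37 among the 11090 dimmer genes of the array. The 95% interval of limma lay inside a 1.5-fold change in either direction for 36 of the 37 genes, Acta2 being the exception, and inside a 2-fold change for all 37. Inside a 1.2-fold change it lay for 15. Most genes of the array met the wider bounds too: 92.1% of all genes lay inside 1.5-fold and 99.1% inside 2-fold. Inside 1.2-fold lay 25.4% of all genes, against 40.5% of the 37. Their median standard error was 0.091 log2 units, against 0.097 over all genes.

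**Figure D1:**
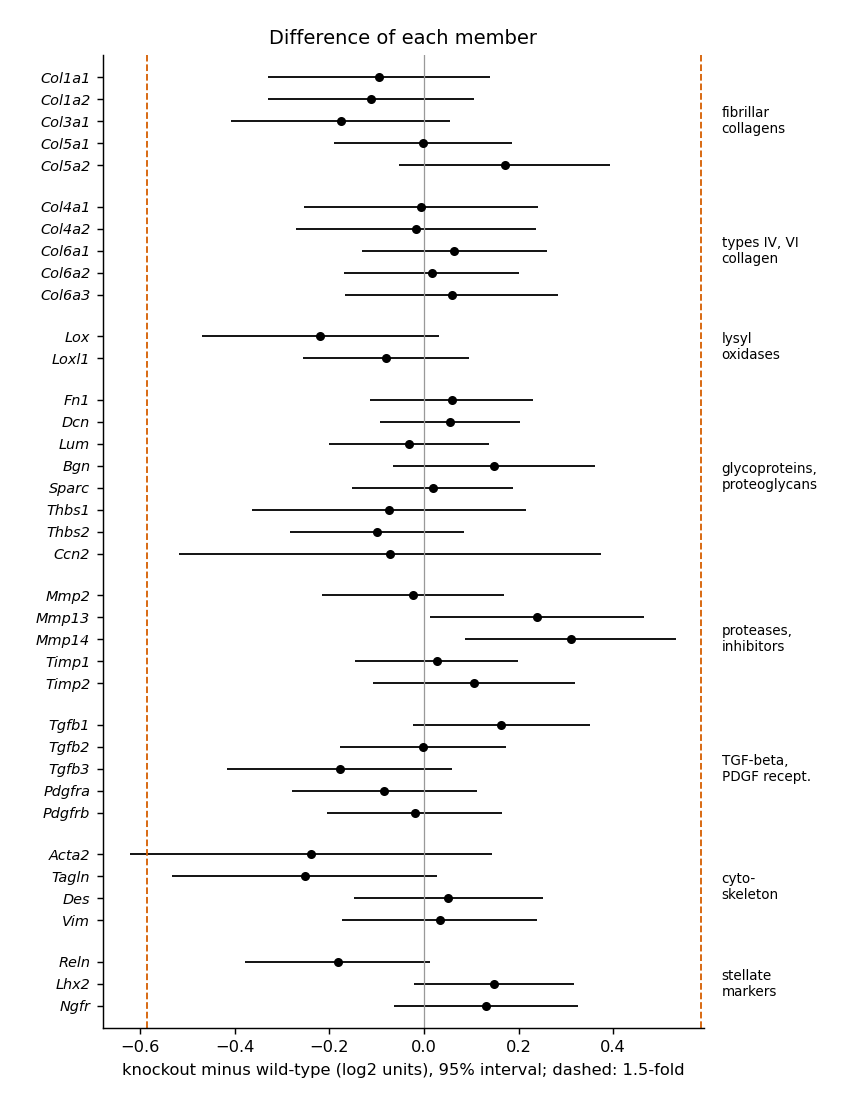
Difference between knockout and wild-type livers for each of the 37 genes (x axis, log2 units; points are limma estimates and bars 95% intervals), grouped by role. Dashed lines mark 1.5-fold, which only the bar of Acta2 crosses, on the lower side, and the bars of Mmp13 and Mmp14 are the only ones that leave out 0.

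**Figure D2:**
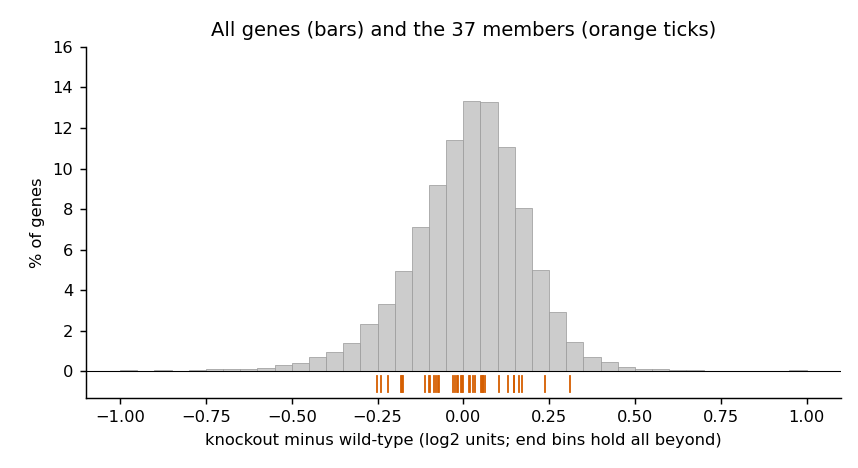
Distribution of the knockout minus wild-type difference (x axis, log2 units) over 22180 genes as bars (y axis, percent of genes per bin of 0.05), with the 37 genes as ticks. The ticks lie between -0.25 and 0.31, within the body of the distribution, whose tails reach -2.73 and 2.41.

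Promoter flanks of a pair of genes are shown, for the gene read most often as the sign of stellate activation, Acta2, and for the single gene whose groups did not overlap, Mmp14. Each is the 250 bases upstream of the RefSeq start on GRCm38.p6, 5′ to 3′ on the strand of the gene, at chr19:34255374-34255623 (minus strand) for Acta2 and chr14:54431348-54431597 (plus strand) for Mmp14. Capitals mark, in Acta2, CArG boxes with at most 1 mismatch in their centre, the element bound by serum response factor, and in Mmp14 the GC box GGGCGG, here in 2 adjoining copies.
Acta2: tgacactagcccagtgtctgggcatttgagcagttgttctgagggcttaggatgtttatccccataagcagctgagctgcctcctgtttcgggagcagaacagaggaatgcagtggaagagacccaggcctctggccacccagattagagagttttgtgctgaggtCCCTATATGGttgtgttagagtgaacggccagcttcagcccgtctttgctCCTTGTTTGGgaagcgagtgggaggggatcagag
Mmp14: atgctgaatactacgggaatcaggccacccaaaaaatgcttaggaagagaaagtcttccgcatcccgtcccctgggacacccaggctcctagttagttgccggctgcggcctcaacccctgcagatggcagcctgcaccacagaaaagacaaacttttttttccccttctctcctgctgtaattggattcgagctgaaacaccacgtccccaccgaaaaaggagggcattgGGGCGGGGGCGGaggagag
A CArG box by this definition occurred on either strand in 8.59% of 32851 such flanks in the genome table and in 4 of the 24 measured genes with an entry (Acta2, Col1a2, Col6a3 and Mmp14), and Tagln had no entry. The GC box occurred on either strand in 32.7% of all flanks and in 13 of the 24, and Mmp14 held both motifs. A match is a run of letters and does not show binding.

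Fibrillar collagens, the rope-like proteins that accumulate in scar tissue, gave 4 differences below 0 and 1 above, and none of the 5 passed. Col1a1, the major chain of type I collagen, was measured at 8.17, 8.12, 8.25 and 8.26 in the knockout mice 1 to 4 and at 8.32, 8.58, 8.05 and 8.23 in the wild-type mice 1 to 4. The knockout values lay within the span of the wild-type values, and the difference was -0.096 ± 0.107 (SE), or 0.936-fold with a 95% interval of 0.795 to 1.1. Col1a2, its partner chain, stood at 7.82, 7.99, 8.09 and 7.80 against 8.14, 8.19, 7.88 and 7.94, a difference of -0.11 ± 0.10. Col3a1, which forms mixed fibrils with type I collagen, stood at 8.04, 8.43, 8.41 and 8.36 against 8.59, 8.60, 8.44 and 8.33. Knockout mouse 1 was the lowest of the 8 for Col3a1, the other 3 knockout values lay within the wild-type span, and the difference was -0.18 ± 0.11 (adjusted p = 0.425). The type V chains, which nucleate these fibrils, differed by -0.0024 ± 0.0854 for Col5a1 and by 0.17 ± 0.10 for Col5a2.

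The basement membrane and beaded-filament collagens lay closer to 0 still, between -0.017 and 0.064, with none of the 5 past the threshold. Col4a1 and Col4a2, the chains of the type IV network, are neighbours in the genome, transcribed away from each other from adjoining starts. Col4a1 stood at 7.81, 8.02, 8.23 and 8.35 in the knockout mice and at 8.12, 8.20, 8.02 and 8.09 in the wild-type mice. Col4a2 stood at 7.62, 7.74, 7.94 and 8.14 against 7.95, 8.01, 7.76 and 7.78. The same arrays were extreme for both, knockout mouse 1 the lowest and knockout mouse 4 the highest of the 8, so the knockout livers spread on either side of the wild-type livers. Col6a1, Col6a2 and Col6a3, the chains of microfibrillar type VI collagen, differed by 0.064, 0.017 and 0.058, with standard errors of 0.084 to 0.102.

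**Figure D3:**
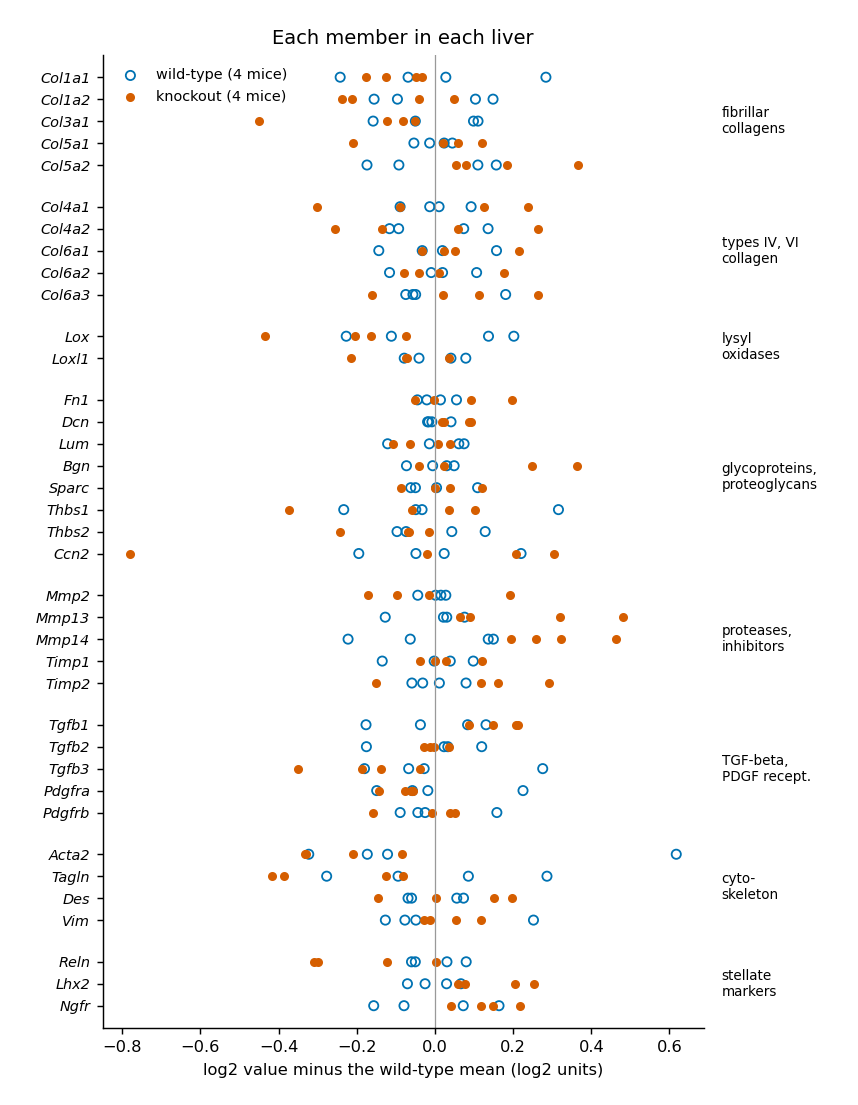
Value of each of the 37 genes in each liver minus the mean of the 4 wild-type livers (x axis, log2 units), filled points for knockout and open points for wild-type, grouped by role. The filled and open points interleave for every gene but Mmp14, and the points farthest from 0 are knockout mouse 4 for Ccn2 (-0.78) and wild-type mouse 2 for Acta2 (0.62).

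Lysyl oxidases carry copper and a quinone cofactor in their active site. Of the 3 listed, Lox and Loxl1 were measured, both with differences below 0 and neither past the threshold. Lox, the founding member, stood at 5.92, 5.65, 5.88 and 6.01 in the knockout mice and at 5.86, 6.22, 6.29 and 5.97 in the wild-type mice. Wild-type mice 2 and 3 were above every knockout value and wild-type mice 1 and 4 were not, and all 8 values lay near the array median. The difference was -0.22 ± 0.11 (0.859-fold, 95% interval 0.722 to 1.02, adjusted p = 0.362). Loxl1, which acts mainly on elastin, stood at 7.14, 7.03, 7.04 and 6.89 against 7.15, 7.07, 7.03 and 7.18, a difference of -0.081 ± 0.080 whose interval spans 0.837-fold to 1.07-fold.

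The other lysyl oxidases of the mouse, outside the 39, were Loxl3 and Loxl4. Loxl3 differed by -0.014 ± 0.076, and its groups overlapped. Loxl4 stood at 7.28, 8.70, 8.69 and 7.96 in the knockout mice and at 7.49, 9.08, 9.28 and 9.41 in the wild-type mice. The mouse numbered 1 was the lowest of its group in both genotypes, and these are the mice with high Dbp. The difference of -0.66 ± 0.42 did not pass (adjusted p = 0.458), and its interval, 0.334-fold to 1.2-fold, was wider than that of any of the 37 genes. Without both mice numbered 1, every remaining knockout value lay below every wild-type value, in a setting where groups did not overlap for 21.6% of all genes. The difference was then -0.81 (limma adjusted p = 0.126). Without wild-type mouse 1 alone it was -1.1 (adjusted p = 0.124), and without knockout mouse 1 alone -0.37 (adjusted p = 0.711). The part of the Dbp pattern in the Loxl4 values was not tested further.

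**Figure D4:**
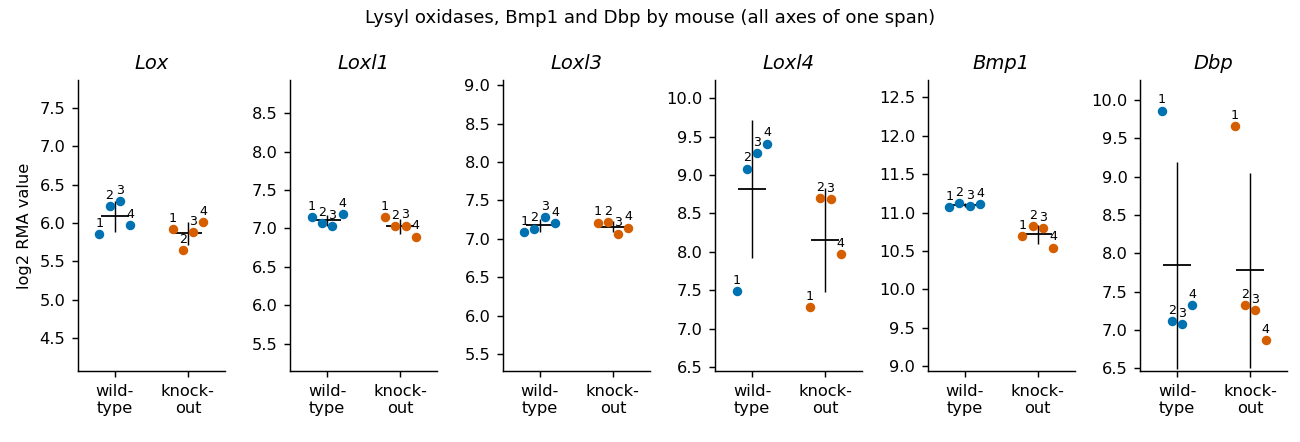
Log2 values (y axes, all of one span) of Lox, Loxl1, Loxl3, Loxl4, Bmp1 and Dbp in 4 wild-type and 4 knockout livers, points numbered by mouse, with the mean and SD as a horizontal and a vertical line. Loxl4 was low and Dbp high in both mice numbered 1, and Bmp1 was lower in each knockout mouse (10.54 to 10.83) than in each wild-type mouse (11.08 to 11.12).

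Among the matrix glycoproteins, proteoglycans and matricellular proteins, 8 of 9 were measured, none passed, and their differences ran from -0.099 for Thbs2 to 0.148 for Bgn. Fn1, the fibronectin that hepatocytes also secrete in quantity, averaged 13.14 ± 0.11 over the knockout mice and 13.08 ± 0.04 over the wild-type mice (SD, n = 4 each), near the top of the scale. The small leucine-rich proteoglycan genes Dcn and Lum, neighbours in the genome, differed by 0.056 ± 0.067 and -0.031 ± 0.077. Bgn, of the same family, was at 12.17 and 12.28 in knockout mice 1 and 3 and at 11.88 and 11.94 in knockout mice 2 and 4, against 11.85 to 11.97 in the wild-type mice. Ccn2 (Ctgf), a TGF-beta target that marks profibrotic signalling, stood at 8.23, 8.46, 8.56 and 7.47 in the knockout mice and at 8.28, 8.06, 8.20 and 8.47 in the wild-type mice. Knockout mouse 4, the mouse with low Y-linked genes, was below all others, and the difference turned from -0.072 ± 0.203 to 0.16 without it, with an adjusted p of 0.481. The dimmer second probe set of Ccn2 gave 0.22. Sparc differed by 0.018 ± 0.078, and the thrombospondin gene Thbs1, an activator of latent TGF-beta, by -0.074 ± 0.132.

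Matrix proteases and their inhibitors held the 2 genes with an unadjusted p under 0.05. Mmp14, the membrane-bound collagenase that activates pro-MMP2, stood at 9.60, 9.66, 9.87 and 9.73 in the knockout mice and at 9.18, 9.55, 9.34 and 9.54 in the wild-type mice. Every knockout value was above every wild-type value, though the lowest knockout and the highest wild-type value were only 9.60 and 9.55. The difference of 0.31 ± 0.10 was a 1.24-fold one (95% interval 1.06 to 1.45). It missed the threshold with a limma adjusted p of 0.168, and of 0.112 or more over 22 alternative settings. Mmp14 is also expressed by macrophages and endothelium.

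Mmp13, the main interstitial collagenase of rodents, stood at 5.16, 5.19, 5.42 and 5.58 against 5.12, 4.97, 5.13 and 5.17. Knockout mice 2, 3 and 4 were above all wild-type mice, the first of these narrowly, and knockout mouse 1 was not, with all values below the array medians. The difference was 0.24 ± 0.10 (limma adjusted p = 0.277). Timp1, the metalloproteinase inhibitor that rises early in fibrosis, stood at 5.20, 5.17, 5.13 and 5.29 against 5.03, 5.27, 5.21 and 5.17. These values overlapped and also lay below the array medians, and the difference was 0.027 ± 0.078, or 1.02-fold with an interval of 0.904 to 1.15. Mmp2, the gelatinase of stellate cells, differed by -0.023 ± 0.088 and Timp2 by 0.11 ± 0.10.

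Of the TGF-beta ligands, Tgfb1, the isoform most tied to fibrosis, stood at 8.66, 8.72, 8.78 and 8.79 in the knockout mice and at 8.71, 8.66, 8.40 and 8.54 in the wild-type mice. Knockout mice 2, 3 and 4 were above every wild-type mouse, and the difference of 0.16 ± 0.08 did not pass (adjusted p = 0.362). Tgfb2 and Tgfb3 differed by -0.0020 ± 0.0800 and -0.18 ± 0.11. Pdgfrb, the receptor through which PDGF drives stellate cell proliferation, stood at 8.49, 8.69, 8.71 and 8.65 against 8.61, 8.63, 8.56 and 8.81, a difference of -0.019 ± 0.084. Pdgfra differed by -0.084 ± 0.089. None of these 5 genes passed.

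Acta2, the smooth muscle actin of myofibroblasts and of vessel walls, stood at 8.99, 9.11, 8.87 and 8.87 in the knockout mice and at 8.88, 9.82, 9.08 and 9.03 in the wild-type mice. Wild-type mouse 2 was far above the other 7, which lay within 8.87 to 9.11 irrespective of genotype. The difference of -0.24 ± 0.17 (adjusted p = 0.516) shrank to -0.033 without that mouse. Tagln, an actin-binding protein of the same cells, was highest in the same mouse, at 7.94, and stood at 7.24 to 7.57 in the knockout mice and 7.38 to 7.74 in the other wild-type mice, a difference of -0.25 ± 0.13 (adjusted p = 0.350). The smooth muscle markers Myh11 and Cnn1 were also highest in wild-type mouse 2, at 7.25 and 5.95. The mean of the 10 measured portal fibroblast and vascular smooth muscle markers was 7.01 in that mouse and 6.77 to 6.88 in the other 7, and the part of these cells in the Acta2 and Tagln values was not tested. Des, the intermediate filament of rodent stellate cells, stood at 7.45, 7.26, 7.40 and 7.11 against 7.18, 7.33, 7.31 and 7.19, a difference of 0.051 ± 0.091, and Vim differed by 0.033 ± 0.094.

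The remaining genes mark stellate cells in other ways. Reln, a secreted glycoprotein made by stellate cells in the liver, stood at 9.30, 9.31, 9.49 and 9.61 in the knockout mice and at 9.64, 9.56, 9.55 and 9.69 in the wild-type mice. Knockout mouse 4 lay among the wild-type mice and the other 3 below them, and the difference was -0.18 ± 0.09 (0.881-fold, 95% interval 0.770 to 1.009, adjusted p = 0.332). Lhx2, a transcription factor that holds stellate cells quiescent in mice, differed by 0.15 ± 0.08, and Ngfr, the low-affinity neurotrophin receptor, by 0.13 ± 0.09. Of 15 further markers of quiescent stellate cells 13 were measured. None passed or reached an unadjusted p under 0.05, where 1.15% and 16.7% of all genes did. Differences were above 0 for 11 of the 13, with a median of 0.11, and for 12676 of all 22180 genes, with a median of 0.027. The mean level of the markers was 8.46 to 8.70 in knockout and 8.48 to 8.55 in wild-type arrays. The members of smallest p were Hhip at 0.19 ± 0.12, Ecm1 at 0.13 ± 0.09 and Bmp5 at -0.12 ± 0.08.

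High and low arrays occurred in both genotypes. Knockout mouse 3 held the highest of the 8 values for 11 of the 37 genes, wild-type mouse 2 for 8 and knockout mouse 4 for 7. Knockout mouse 1 held the lowest value for 10 and knockout mouse 4 for 7. The median of the 37 genes, each set against its wild-type mean, was -0.062, 0.0030, 0.059 and -0.028 in knockout mice 1 to 4 and -0.0096, 0.073, -0.050 and -0.014 in wild-type mice 1 to 4. The knockout arrays thus lay on either side of 0. For the wild-type arrays this is nearly given by the scale, because 0 is their own mean for each gene. Wild-type mouse 2 was the highest.

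The control group was also divided by its genotype labels, in a limma fit with 3 groups. None of the 37 genes passed between the knockout and the Cre-positive controls with 1 floxed allele (Col5a2 and Mmp14, both higher, at an unadjusted p under 0.05, 5.41% against 11.8% of all genes, with 0.131% of all genes past the threshold). None passed between the knockout and the Cre-free controls either (Acta2 and Tagln, both lower, at an unadjusted p under 0.05, against 11.5% of all genes, with 0.212% past the threshold). Mmp14 differed by 0.45 from the Cre-positive controls and by 0.17 from the Cre-free ones, with adjusted p of 0.178 and 0.582, the controls themselves lying at 9.26 and 9.55. Tagln lay the other way, at -0.066 from the Cre-positive and -0.44 from the Cre-free controls, with adjusted p of 0.874 and 0.247. Between the control classes 2 of the 37, Mmp14 and Tagln, had an unadjusted p under 0.05, against 3.03% of all genes, and 0% of all genes passed, with 671 genes at an unadjusted p under 0.05. The knockout comparisons share the knockout samples and each control class has 2 mice.

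Lists of other matrix and signalling genes gave no call as well. Of 133 further genes measured out of 140, none passed (limma with Benjamini-Hochberg adjustment), and their median difference was 0.0066. At an unadjusted p under 0.05, 4 of the 133 were higher and 12 lower, where 8.61% and 8.06% of all genes were (16.7% together). Groups did not overlap for 14 of the 133, where they did not for 10.7% of all genes. Among 16 measured genes of collagen processing, 4 were lower at an unadjusted p under 0.05 and none higher, with a list median of 0.0025. Of the 11090 brighter genes of the array 1461 were lower and 737 higher at that p. Bmp1, the procollagen C-proteinase that also activates pro-lysyl oxidase, stood at 10.69, 10.83, 10.80 and 10.54 in the knockout mice and at 11.08, 11.12, 11.08 and 11.11 in the wild-type mice. The groups did not overlap, and the difference of -0.38 ± 0.08 (0.767-fold, 95% interval 0.678 to 0.867) narrowly missed the threshold at an adjusted p of 0.0516. It passed in 5 of 22 alternative settings, at adjusted p down to 0.0216. The other 3 are endoplasmic reticulum proteins of collagen folding: P4hb, the beta subunit of prolyl 4-hydroxylase and a disulfide isomerase, at -0.27 ± 0.09, the prolyl isomerase Ppib at -0.20 ± 0.08 and the prolyl 3-hydroxylase P3h1, also called leprecan, at -0.19 ± 0.08, with adjusted p of 0.169 to 0.279. P3h1 was named after its value was seen.

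The matricellular gene Spon2 stood at 8.07, 8.20, 7.82 and 8.18 in the knockout mice and at 8.39, 8.69, 8.48 and 8.61 in the wild-type mice. These values did not overlap, and the difference of -0.47 ± 0.10 missed the threshold at an adjusted p of 0.0561, passing in 5 of 22 alternative settings. The groups of the nonmuscle myosin gene Myh10 did not overlap either, at 7.10 to 7.47 against 7.62 to 7.86, a difference of -0.42 ± 0.10 with an adjusted p of 0.0629 that passed in 6 of 22. Ccn1, a matricellular relative of Ccn2, differed by -0.36 ± 0.11, Thbs4 by 0.20 ± 0.07, the basement membrane gene Nid2 by -0.28 ± 0.09 and the fibulin-type gene Efemp1 by -0.31 ± 0.11. In the other direction lay the PDGF ligand gene Pdgfa, at 7.94 to 8.24 against 7.57 to 7.82, a difference of 0.37 ± 0.09 (adjusted p = 0.0874) that passed in 1 of 22 settings. The metalloproteinase Mmp16 differed by 0.31 ± 0.09 and Mmp19 by -0.26 ± 0.11, and Mmp3 by -0.21 ± 0.10. Of the other collagens Col12a1 differed by -0.32 ± 0.10, Col14a1 by -0.24 ± 0.10 and Col10a1 by 0.24 ± 0.09.

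Markers of other cell types were read beside these values, and none passed in any list. Of 10 portal fibroblast and vascular smooth muscle markers 4 had differences above 0 and 6 below, with a median of -0.035. Among these 10 only Thy1 had an unadjusted p under 0.05, against 16.7% of all genes. Thy1 averaged 7.26 ± 0.08 over the knockout mice and 6.93 ± 0.13 over the wild-type mice (SD, n = 4 each), a difference of 0.33 ± 0.09 (limma adjusted p = 0.0936). Thy1 also marks T cells. All 10 measured lymphocyte markers had differences above 0, with a median of 0.20. Their mean levels were 6.13 to 6.40 in knockout against 5.96 to 6.06 in wild-type arrays. Of these 10 markers 3 were higher at an unadjusted p under 0.05, and groups did not overlap for 1. Over all genes the shares were 16.7% and 10.7%. The part of lymphocytes in the Thy1 values was not tested. Of 13 Kupffer cell and macrophage markers 12 had differences above 0, with a median of 0.12 and mean levels of 8.58 to 8.98 against 8.48 to 8.87. Cd68 was the highest of them at 0.36 ± 0.09 (adjusted p = 0.0921). The 13 sinusoidal endothelial markers had a median of 0.051, the 8 cholangiocyte markers one of 0.11, the 6 mesothelial markers one of -0.0037 and the 11 hepatocyte markers one of -0.0088. All 11 muscle markers had differences above 0 as well, with a median of 0.18. Their mean levels were 5.80 to 6.01 in knockout against 5.66 to 5.74 in wild-type arrays. For scale, 7740 of the 11090 dimmer genes of the array had differences above 0, with a median over the 11090 of 0.067. The part of macrophages, which express Mmp14 and Tgfb1 too, in the values of these genes was not tested.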

How the data were processed

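Livers of 4 knockout and 4 wild-type mice, grouped by the titles, were each measured on 1 Affymetrix whole-transcript array, per the labels. The authors deposited RMA values for 39137 probe sets, and the submitters' processing notes name RMA and the package oligo (version 1.24). RMA subtracts background, equalises the arrays by quantiles and summarises probes, which pulls large differences toward 0. No label names the log2 scale of the deposited values, which was inferred from RMA and a range of 1.28 to 13.88. The chip definition is, like the build, not given in the sources used here.

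Symbols came from the platform annotation, in which 23521 probe sets had 1, 1814 several and 13802 none. Per gene the probe set of the highest mean was kept, which left 22180 genes. Differences are knockout minus wild-type from limma (version 3.58.1, under R 4.3.3), with lmFit and eBayes on group alone and two-sided p-values adjusted by Benjamini-Hochberg over all genes, and errors are limma standard errors unless named SD. The limma step was also tested on simulated data. The number of arrays limits precision, and the labels give no scan date, litter or sex. The members and lists were chosen with earlier results of these data known, and the pairs of neighbours, the motifs, Myh11, Cnn1 and Dbp were picked after values were seen. Values of every array were fixed to be printed for 14 of the genes and any with an unadjusted p under 0.05, and up to 3 genes of smallest p were named per list. Alternatives covered 22 settings. Promoter flanks are from RefSeq (GRCm38.p6), with entries for 24 of the 37 genes. Python 3.11.15, pandas 2.3.3 and matplotlib 3.10.9 were used for tables and plots.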

Additional observations from a re-analysis of the deposited data

Results flagged for a closer look

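Of 78 groups of 4 arrays examined for a value apart from the rest (the 37 genes, Loxl3 and Loxl4, in each genotype), 2 held one, and chance flags about 1 in 20. Loxl4 in wild-type mouse 1 stood at 7.49, below the next wild-type value of 9.08. Col6a3 in wild-type mouse 4 stood at 7.06, above the next value of 6.83.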

How the results depend on the processing

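None of the 37 genes passed the threshold in any of the 22 alternative settings. Their median difference stayed between -0.042 and 0.033 in the 17 settings for which it was computed. Array weights and the Y-linked covariate, which can move it too, were not among these 17. Over all genes the calls ranged more widely, from 255 to 6 with the Cre-positive controls only, 16 with the Cre-free controls only, 21 with a minimum fold of 1.2, 42 with all probe sets, 151 with the Y-linked covariate, 65 to 175 with arrays left out, and 439, 442 and 459 with either filter on dim genes and with a trended variance. The counts at an unadjusted p under 0.05 (2 higher, 0 lower) and of non-overlapping groups (1 higher, 0 lower) are small, so they moved easily. With 1 array or both mice numbered 1 left out, 1 to 3 were higher and 0 to 2 lower at an unadjusted p under 0.05. In the same settings 1 to 3 higher and 0 to 1 lower did not overlap. Over all genes groups did not overlap for 13.7% to 17.5% with 1 array left out and 21.6% without both mice numbered 1. With renewed quantile normalization 1 was lower at an unadjusted p under 0.05 and 4 higher did not overlap, against 14.5% and 9.36% of all genes in either direction. With arrays centred on their median 1 was higher and 2 lower, among genes above the median mean 1 was higher, with all probe sets tested 1 was higher, with array weights 2 were lower, with the Y-linked covariate 1 was lower and with a minimum fold of 1.2 in the test 0 were higher. Of all genes or probe sets in these settings 13.1% to 21.2% had an unadjusted p under 0.05, and 1.80% with the minimum fold. With probe sets of a gene averaged 1 lower did not overlap, against 10.7% of all genes in either direction. Against the Cre-positive controls 5 higher and 2 lower did not overlap, where 21.4% of all genes did not. Against the Cre-free controls 0 were higher and 2 lower at an unadjusted p under 0.05, where 11.3% of all genes had such a p. In that comparison 3 higher and 1 lower did not overlap, against 23.1% of all genes. Some of these settings, though not all, hold fewer arrays or genes. The cause of the moves was not tested.

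Same-numbered mice correlated in their deviations from the group means at 0.27, -0.022, 0.031 and -0.10, so the numbers were not taken to pair the mice. With mouse number as a replicate block 0 of the 37 genes passed and 1 was lower at an unadjusted p under 0.05, against 16.4% of all genes in either direction.

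Some differences near 0 changed sign without a call on either side. Col1a1 was at 0.011 against the Cre-positive controls. Timp1 was at -0.040 with renewed quantile normalization, -0.0023 with centred arrays, -0.0046 with the Y-linked covariate, -0.021 against the Cre-free controls and -0.018 to 0.060 with arrays left out. Ccn2 was at 0.074 with the mean of its probe sets, 0.023 with array weights, 0.19 with the Y-linked covariate and -0.20 to 0.16 with arrays left out. Pdgfrb was at 0.030 with renewed quantile normalization, 0.047 against the Cre-positive controls and -0.049 to 0.033 with arrays left out. Des was at -0.020 without both mice numbered 1 and at 0.0028 to 0.12 with 1 array left out. Loxl3 was at 0.014 with renewed quantile normalization, 0.0011 with the Y-linked covariate and -0.061 to 0.021 with arrays left out.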
